A study of Mus musculus with 23 samples.

Results

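A set of 10 genes of the skin's keratinocytes were followed through arrays of mouse calf muscle. They were the keratins Krt5, Krt14, Krt15, Krt1 and Krt10, the cornified envelope genes Lor and Lce1a1, the desmosomal cadherins Dsg1a and Dsc1, and Sfn. They were taken by name, through the RefSeq accession of each probe, from 21261 named genes on the array, and were chosen by the log2 levels of these same 23 arrays, among which they had been seen to vary widely. Their levels and differences are therefore a description, without a test. All 10 were found on the array, and all 10 were well above background on at least 3 arrays. The study asked how muscle of male C57BL/6J mice of 2 ages responds to a pair of treadmill regimens. All mice were housed singly, and gastrocnemius was excised and snap-frozen after 12 h of rest. Old mice (25 months at sampling, 24 at the start) had been given high-intensity intermittent training (HIIT, 4 arrays), moderate-intensity continuous training (MICT, 4 arrays) or no training (sedentary controls, 4 arrays). Adult mice (6 months at sampling, 5 at the start) had the same treatments, with 4 HIIT, 3 MICT and 4 control arrays. Each daily HIIT session, for 4 weeks, held 3 bouts of 2 min (27 m/min) that were parted by 1 min of slow running (5 m/min). A MICT session held 1 continuous bout of 45 min (13 m/min). Controls were put on a stopped treadmill. The labels name no genetic change in any group.

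The epidermis renews itself from a basal layer. Basal keratinocytes make the keratin pair Krt5 and Krt14, and as cells move outward they change to the pair Krt1 and Krt10, then build a cornified envelope of cross-linked proteins such as loricrin (Lor) and the late cornified envelope proteins, while desmosomes hold the cells together. Skeletal muscle fibres contain none of these layers, and their intermediate filament is desmin.

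The arrays held 3 slides of 8 positions. Old HIIT and old MICT shared a slide, adult HIIT and adult controls shared another, and old controls and adult MICT shared the third, so that only those pairs of groups can be compared within a slide. Between 47.1% and 58.8% of gene spots were well above background per array, with the lowest share in old control 3 and the highest in old HIIT 2. The tissue label was borne out on every array: all 8 muscle markers looked at (Acta1, Ckm, Myh4, Myh1, Myh2, Myh7, Tnnt3 and Pvalb) were above background on each of the 23 arrays. Levels below are log2 intensities after subtraction of the array's 75th percentile, so that 0 stands for that percentile, and they compare arrays for one probe, not one probe with another.

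The level of the 10 genes varied widely between arrays of one group. Averaged over the 10 genes, each centred on its mean over 23 arrays, it was highest in old control 2 (6.26), followed by old HIIT 4 (5.64), adult HIIT 3 (4.83), old HIIT 3 (4.18), old HIIT 2 (3.22) and old control 3 (2.25). In the same groups, old HIIT 1 stood at -0.67, old control 1 at -1.27 and adult HIIT 2 at -2.48. A high and a low array thus occurred in each of these 3 groups. All 10 genes were above background on 5 arrays, namely old HIIT 2, 3 and 4, old control 2 and adult HIIT 3. On the adult control arrays 4 to 6 of the 10 were above background. Every one of the 10 genes was highest in old control 2. In bulk tissue, more cells of a type and more RNA per cell cannot be told apart.

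Group means followed the order old HIIT (3.09 ± 2.70), old control (1.79 ± 3.32), adult HIIT (0.27 ± 3.45), old MICT (-1.60 ± 1.44), adult MICT (-1.92 ± 0.91) and adult control (-2.12 ± 0.52; SD, n = 4 each, and 3 for adult MICT). Each group differed from its neighbour in this order by less than the larger SD of the pair. The widest such gap was 1.87, between adult HIIT and old MICT, beside an SD of 3.45. Neighbours in an order set by the means lie close by construction, so this does not extend to groups further apart. Differences between groups made up 24.9% (Sfn) to 55.4% (Lor) of the variance of a gene over the 23 arrays, and the rest lay between arrays of one group. With so few arrays per group, part of the variance falls between groups even without any group effect. That part was not subtracted.

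**Figure D1:**
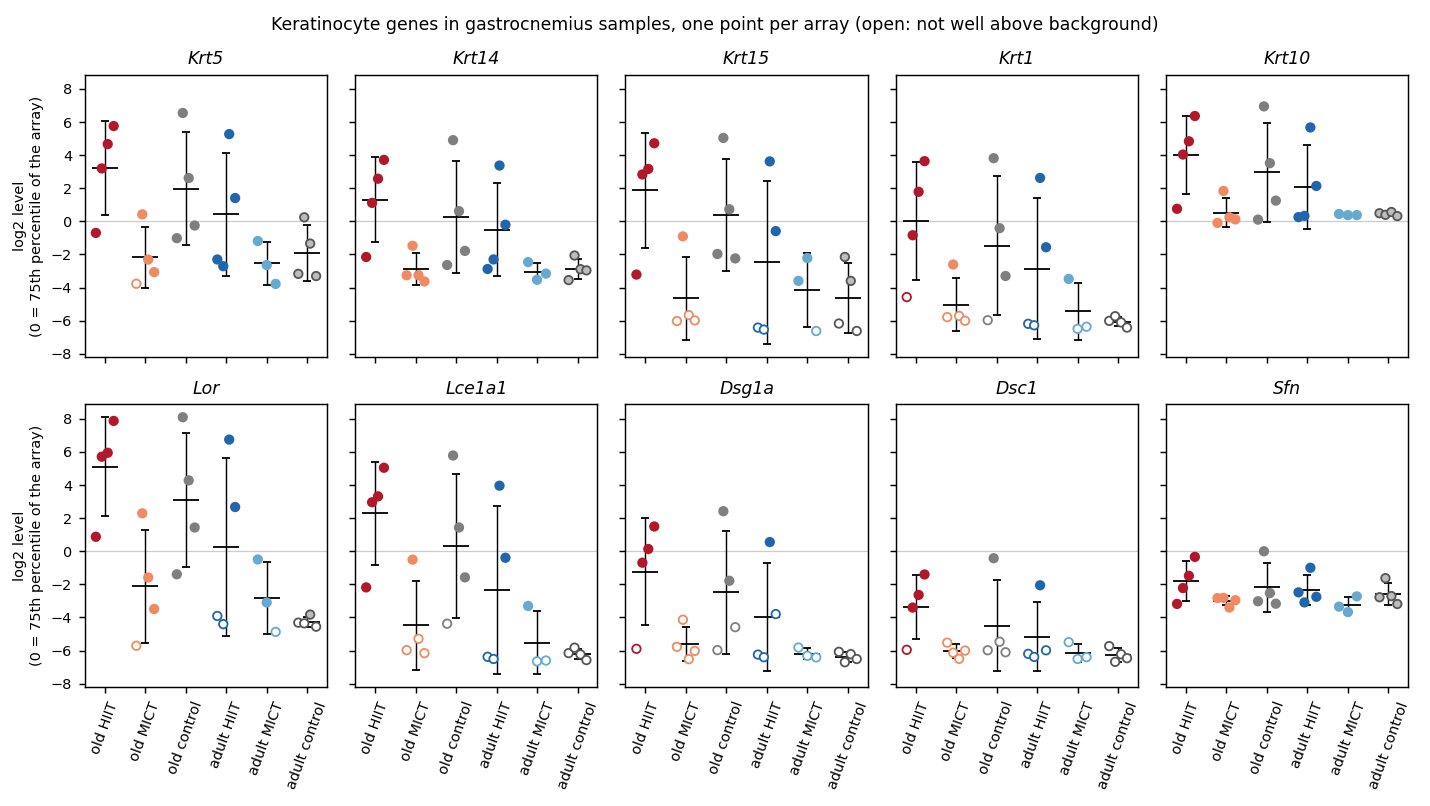
Log2 level of each of the 10 keratinocyte genes (vertical axis, 0 is the array's 75th percentile) by group (horizontal axis), one point per array, filled where the probe was well above background, with the mean and SD of each group as a bar. For Krt5 and Krt14 old HIIT, old control and adult HIIT each hold arrays within the range of the adult controls and arrays several log2 units above it, and every gene is highest in old control 2.

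Of the basal keratins, Krt14, the partner of Krt5 in the filaments of dividing keratinocytes, was above background on all 23 arrays. Its log2 level was -2.15, 1.12, 2.58 and 3.72 in old HIIT 1 to 4, -3.26, -1.47, -3.25 and -3.63 in old MICT 1 to 4, and -2.64, 4.91, 0.62 and -1.78 in old controls 1 to 4. In adult mice it was -2.88, -2.30, 3.37 and -0.20 in HIIT 1 to 4, -2.46, -3.53 and -3.16 in MICT 1, 3 and 4, and -3.55, -2.06, -2.89 and -2.96 in controls 1 to 4. Old HIIT 2, 3 and 4, old control 2 and adult HIIT 3 were high, and every trained group overlapped its controls. The highest array lay 371-fold above the lowest.

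Krt5 was above background on 22 arrays. Its log2 level was -0.70, 3.20, 4.67 and 5.76 in old HIIT 1 to 4, -3.77, 0.43, -2.31 and -3.07 in old MICT 1 to 4, and -1.02, 6.55, 2.62 and -0.25 in old controls 1 to 4. Adult values were -2.30, -2.71, 5.27 and 1.41 in HIIT 1 to 4, -1.18, -2.64 and -3.78 in MICT 1, 3 and 4, and -3.17, 0.24 (control 2), -1.34 and -3.30 in controls 1 to 4. The same arrays were high as for Krt14, while adult control 2 stood above the other adult controls. A second, dimmer Krt5 probe was above background on 5 arrays, and its levels correlated with the first over the 23 arrays (Pearson r = 0.89). Krt15, a keratin of basal cells and of the hair follicle bulge, was above background on 15 arrays, including all old HIIT and all old control arrays and 1 of the 4 old MICT arrays. Its log2 level lay between -6.62 and 5.04.

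The suprabasal keratins followed the same arrays. Krt10 was above background on all 23, with log2 levels of 0.76, 4.04, 4.84 and 6.37 in old HIIT 1 to 4, -0.09, 1.84, 0.25 and 0.12 in old MICT 1 to 4, and 0.11, 6.95, 3.52 and 1.25 in old controls 1 to 4. In adult mice it was 0.26, 0.33, 5.67 and 2.14 in HIIT 1 to 4, 0.45, 0.38 and 0.38 in MICT 1, 3 and 4, and 0.49, 0.40, 0.57 and 0.32 in controls 1 to 4. The 7 adult MICT and adult control arrays lay within a narrow band, and the 5 high arrays lay well above it. A second Krt10 probe was above background on 16 arrays, correlated with the first (r = 0.98) and gave wider differences, 4.94 against 2.51 on the log2 scale between old and adult controls. Krt1, the partner of Krt10, was above background on 10 arrays: 3 of 4 in old HIIT, 1 of 4 in old MICT, 3 of 4 in old controls, 2 of 4 in adult HIIT, 1 of 3 in adult MICT and none of the adult controls. Its highest level was 3.82, in old control 2.

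Lor encodes loricrin, a main protein of the cornified envelope, and covered the widest range of the 10. Its log2 level was 0.87, 5.71, 5.95 and 7.88 in old HIIT 1 to 4, -5.71, 2.29, -1.58 and -3.49 in old MICT 1 to 4, and -1.39, 8.10, 4.28 and 1.43 in old controls 1 to 4. In adult mice it was -3.91, -4.41, 6.75 and 2.67 in HIIT 1 to 4, -0.50, -3.10 and -4.87 in MICT 1, 3 and 4, and -4.31, -4.36, -3.83 and -4.56 in controls 1 to 4. The 4 old controls all lay above the 4 adult controls, of which only control 3 was above background. Lce1a1, a late cornified envelope gene of the epidermal differentiation complex, was above background on 11 arrays, including 4 of 4 in old HIIT, 1 of 4 in old MICT, 3 of 4 in old controls and none of the adult controls. Its level reached 5.78 in old control 2. Other Lce1 genes are close in sequence, so part of the signal may come from them, which was not tested.

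The promoters of the members can be read beside these levels. RefSeq gave the 250 bases before the start site for 6 of the 10 genes (Krt5, Krt14, Krt10, Lor, Lce1a1 and Sfn; build GRCm38.p6), all on the minus strand. They are shown for Lor, the widest ranging gene, and for one suprabasal and one basal keratin that moved with it. Capitals mark the AP-1 motif TGANTCA (its own reverse complement) and the TATA box TATAAA, searched on the strand of the gene and on the other strand.
Lor, chr3:92083143-92083392: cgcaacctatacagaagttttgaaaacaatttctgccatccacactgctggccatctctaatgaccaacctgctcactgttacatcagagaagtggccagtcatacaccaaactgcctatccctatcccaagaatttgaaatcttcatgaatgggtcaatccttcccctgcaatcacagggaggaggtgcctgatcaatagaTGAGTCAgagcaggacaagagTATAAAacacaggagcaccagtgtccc
Krt10, chr11:99389365-99389614: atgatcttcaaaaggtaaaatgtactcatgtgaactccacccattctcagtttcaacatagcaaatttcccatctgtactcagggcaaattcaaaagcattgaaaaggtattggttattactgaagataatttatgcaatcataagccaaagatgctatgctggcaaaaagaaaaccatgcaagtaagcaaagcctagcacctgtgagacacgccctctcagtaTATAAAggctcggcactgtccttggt
Krt5, chr15:101712906-101713155: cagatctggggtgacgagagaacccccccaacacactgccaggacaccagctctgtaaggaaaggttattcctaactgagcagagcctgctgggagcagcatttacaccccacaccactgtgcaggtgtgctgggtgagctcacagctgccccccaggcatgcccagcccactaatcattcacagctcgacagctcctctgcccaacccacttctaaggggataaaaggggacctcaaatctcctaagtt

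The AP-1 motif was found in 1 of the 6 promoters, that of Lor, where it begins at base -48, and in 6.75% of 32851 promoters of the same length. The TATA box was found in 2 of the 6, beginning at -27 in Lor and at -26 in Krt10, and in 12.4% of all promoters. The shorter motif CACCC, which Klf factors can bind, was in 4 of the 6 and in 52.0% of all. The motifs do not overlap each other in the promoters shown.

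The desmosomal cadherins were detected on the fewest arrays. Dsg1a, which encodes desmoglein 1 alpha of the upper layers, was above background on 6 arrays: old HIIT 2 (-0.69), 3 (0.14) and 4 (1.50), old control 2 (2.42), old control 3 (-1.78) and adult HIIT 3 (0.55). On the other 17 it lay between -6.71 and -3.80, not well above background. Dsc1, which encodes desmocollin 1, was above background on the 5 arrays where all 10 genes were, at -3.40, -2.64 and -1.40 in old HIIT 2, 3 and 4, -0.42 in old control 2 and -2.06 in adult HIIT 3. No old MICT, adult MICT or adult control array was above background for either cadherin. The Dsg1 genes are near copies of each other, and which of them the probe reads was not tested.

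Sfn encodes 14-3-3 sigma, an adaptor of differentiating keratinocytes that other epithelia also make. It was above background on all 23 arrays and ranged least, 12.8-fold from lowest to highest. Its log2 level was -3.18, -2.22, -1.48 and -0.34 in old HIIT 1 to 4, -2.83, -2.81, -3.40 and -2.96 in old MICT 1 to 4, and -3.02, -0.00 (control 2), -2.53 and -3.17 in old controls 1 to 4. Adult HIIT 3 was at -0.998, and adult control 2, at -1.63, was above the other 3 adult controls, which lay between -3.19 and -2.71. The 6 highest arrays for Sfn were thus the 5 on which all 10 genes were above background and adult control 2, where Krt1, Lor, Lce1a1 and both cadherins were not.

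Across the 23 arrays the genes rose and fell together. The 45 pairs of members had a median Pearson r of 0.94, between 0.68 (Lor with Sfn) and 0.99 (Krt10 with Dsg1a), and a Spearman rho between 0.46 and 0.99. The 36 pairs without Sfn lay between 0.83 and 0.99. Both probes of a pair are read on the same array and share its RNA, and the genes were chosen as a group, so these values are a description. On the 5 arrays with all 10 above background, the difference of Krt5 from Krt14 had an SD of 0.19, although Krt5 itself spanned 3.35 log2 units there. The difference of the other genes from Krt14 had SDs from 0.35 (Krt10) to 0.68 (Krt1). Over these 5 arrays the differences from Krt14 spanned 0.45 (Krt5) to 1.88 (Krt1) log2 units, and the levels of the same genes spanned 2.21 (Krt15) to 4.65 (Krt1). For Krt15 the difference spanned 1.58 beside a level span of 2.21.

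**Figure D2:**
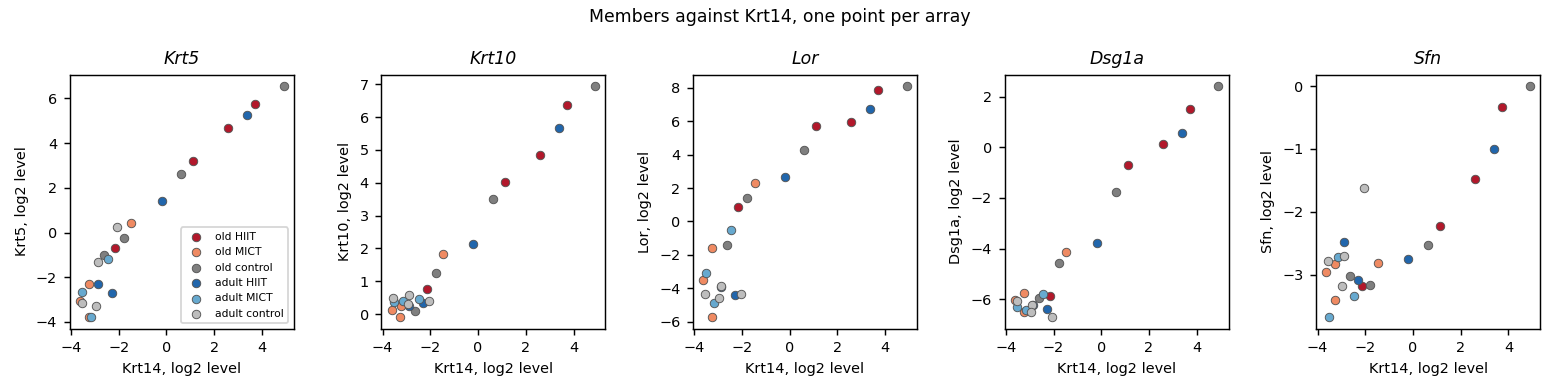
Log2 levels of Krt5, Krt10, Lor, Dsg1a and Sfn (vertical axes) against that of Krt14 (horizontal axis), one point per array coloured by group, 0 being the array's 75th percentile. Krt5 runs close to a line where Krt14 is high and scatters more where Krt14 is low. Dsg1a, not above background on 17 arrays, and Sfn are flat where Krt14 is low and rise where it is high.

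The comparison of ages in untrained mice was set between old and adult controls, which lie on different slides. All 10 genes had a higher mean in old controls. Lor averaged 3.104 ± 4.05 in old controls and -4.26 ± 0.31 in adult controls (SD, n = 4 each), a log2 difference of 7.37 ± 2.24 (SE, 95% interval 2.70 to 12.0). Lce1a1 was at least 24.4-fold higher, Krt1 at least 7.09-fold higher and Dsg1a at least 3.51-fold higher in old controls. These are bounds, because no adult control was above background. A bound sets each adult control to no less than its lowest signal called above background. Arrays of the other group that are not above background keep their measured signal, so a bound is approximate where there are any. It concerns the difference of means only and takes no account of the spread between arrays. Of the 4 old controls, 3, 3 and 2 were above background for these genes. Krt15 differed by 5.03 ± 2.12, Krt5 by 3.87 ± 1.73, Krt14 by 3.14 ± 1.41, Krt10 by 2.51 ± 1.26 and Sfn by 0.39 ± 0.62 (log2, SE). Only 1 adult control was above background for Lor and 2 for Krt15, so these differences depend on signal at background. The 4 old controls lay above all 4 adult controls for Lor, a pattern that 4.44% of features showed; Lce1a1 and Dsg1a gave the same order, but partly among values not above background.

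By limma at an adjusted p under 0.05 over 23707 features, 1 of the 10 genes (Lor) was called, where 12.9% of all features were called in either direction and 4.56% as higher. The median log2 difference was 3.88 over the 10 genes and -0.14 over all features. Since the genes were chosen with these arrays in view, nothing is read from the count, nor from the counts of members in the comparisons below. Without old control 2 the log2 difference was 5.70 ± 2.27 for Lor and -0.33 for Sfn. No member was called then, where 2.14% of all features were. No member was called without adult control 1, 3 or 4 either, where 2.03%, 2.89% and 3.2% of all features were. With slide as a term in an additive model the age effect of Lor was 3.24 ± 3.99. That effect is shared by all treatments, so it is not the difference between old and adult controls alone. Slide and group can be told apart here only under that model.

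The HIIT comparison in old mice set old HIIT against old controls, again on different slides. All 10 genes had a higher mean in old HIIT, by 0.37 (Sfn) to 2.00 (Lor) on the log2 scale, and all 10 intervals included 0. Krt14 averaged 1.32 ± 2.54 in old HIIT and 0.28 ± 3.38 in old controls (SD, n = 4 each). No member was called, against 0.494% of all features, and none had an unadjusted p under 0.05, against 15.8% of all features. The median log2 difference was 1.25 over the members and 0.08 over all features.

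The MICT comparison in old mice used the same old controls as the HIIT comparison, so these 2 share their reference arrays. All 10 genes had a lower mean in old MICT than in old controls, by a log2 difference of -5.23 ± 2.24 for Lor, -5.04 ± 2.12 for Krt15, -4.15 ± 1.73 for Krt5 and -0.82 ± 0.62 for Sfn (SE). For Dsg1a, with the old MICT arrays, none above background, set as for the bounds above, the mean was 2.93-fold lower. The 95% interval of its fitted log2 difference, -6.51 to 0.25, included 0. Only 2 of the 4 old controls were above background for it. The groups overlapped for every member, where 5.8% of features had all old MICT arrays below all old controls. None was called where 30.4% of all features were, and 5 had an unadjusted p under 0.05, against 44.1% of features. The median was -3.37 over the members and 0.19 over all features. Only 1 old MICT array was above background for Krt15, so that its difference depends on signal at background. Without old control 2 the log2 difference was -3.56 for Lor, -2.63 for Krt5, -1.64 for Krt14, -0.19 for Dsc1 and -0.09 for Sfn. Without old control 1, 2 members were called, where 18.3% of all features were.

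Old HIIT and old MICT share a slide, and the members' median difference was the largest in size of the 6 comparisons. Lor averaged 5.10 ± 2.98 in old HIIT and -2.12 ± 3.39 in old MICT (SD, n = 4 each), a log2 difference of 7.22 ± 2.24 (SE). Lce1a1 differed by 6.77 ± 2.16, Krt15 by 6.52 ± 2.12, Krt5 by 5.41 ± 1.73, Krt14 by 4.22 ± 1.41 and Krt10 by 3.47 ± 1.26. Dsg1a was at least 6.93-fold and Dsc1 at least 1.60-fold higher in old HIIT, with no old MICT array above background. Old HIIT 1 was not above background for either gene, so these bounds are approximate. Because 3 of the 4 old MICT arrays were not above background for Lce1a1 and Krt15, their differences depend on signal at background. The 2 groups overlapped for every member (for Dsc1 through arrays not above background), where 2.58% of features had all old HIIT arrays above all old MICT arrays. By limma none was called, where 0% of features were. At an unadjusted p under 0.05 the counts were 9 of 10 members and 16.8% of features. The members were chosen with these arrays in view and move together, so nothing is read from these counts. The members' median log2 difference was 4.70, against -0.09 over all features.

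**Figure D3:**
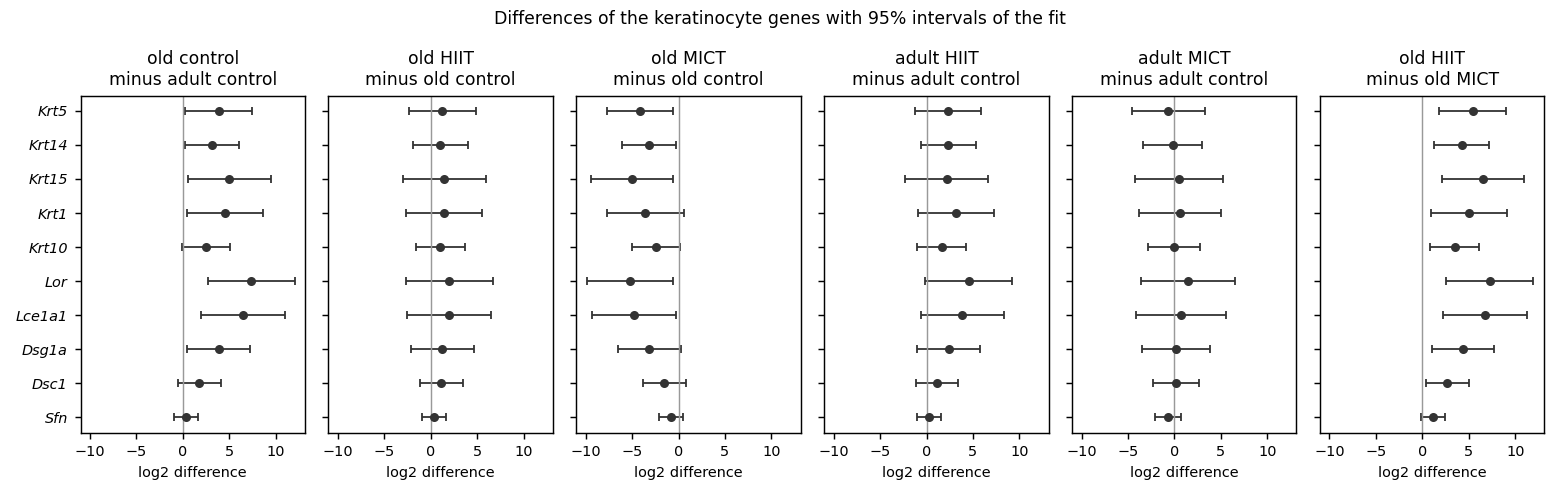
Log2 differences of the 10 genes (points) with 95% intervals from the fit to all 23 arrays (bars), one panel per comparison, with the genes down the page and the difference along the horizontal axis. All 10 points are above 0 for old control minus adult control and for old HIIT minus old MICT, and all 10 are below 0 for old MICT minus old control.

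In adult mice HIIT and control arrays also share a slide. All 10 genes had a higher mean in adult HIIT, by a log2 difference of 0.24 ± 0.62 (Sfn) to 4.54 ± 2.24 (Lor). With adult controls, none above background, set as for the bounds above, the mean of Krt1 was 2.72-fold and that of Lce1a1 3.90-fold higher. The 95% intervals of their fitted log2 differences, -0.88 to 7.31 and -0.63 to 8.36, included 0. Only 2 of the 4 adult HIIT arrays were above background for each of the 2 genes. The mean rested on adult HIIT 3 and 4, since Lor in adult HIIT 1 and 2 was not above background, and without adult HIIT 3 the difference of Sfn was -0.20. None of the 10 was called, against 0% of features, and none had an unadjusted p under 0.05, against 5.09% of features. The median was 2.34 over the members and -0.01 over all features. Adult MICT and adult controls, on different slides, lay close together: the log2 differences ran from -0.67 ± 0.67 (Sfn) to 1.44 ± 2.42 (Lor), 6 positive and 4 negative. None was called (0% of features), and none had an unadjusted p under 0.05 (2.05% of features); the 95% interval for Lor, -3.60 to 6.48, includes differences as large as that between adult HIIT and adult controls.

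Other genes of the epidermis, outside the 10, were listed by role. Of 128 listed, 125 were on the array by name (not matched were Flg, Krt83 and Krt85), and 109 passed the filter. Like the 10, these lists were drawn up with earlier values of these arrays known. The mean over 37 late differentiation genes correlated with that of the 10 at r = 0.99 over 23 arrays, and 30 of the 37 were highest in old control 2. The late cornified envelope family had r = 0.99 over 19 genes, with 13 highest in old control 2. Junction and basement membrane genes had r = 0.98 over 22 genes, with 17 highest there. Epidermal regulators had r = 0.94 over 13 genes, with 8 highest there. Simple epithelial keratins, of single-layered epithelia, had r = 0.34 over 5 genes, and their mean was 0.11 in old control 2. Trp63, the transcription factor that keeps basal keratinocytes, was at 3.08 to 3.90 on all 23 arrays, and at 3.08 in old control 2, where the keratins peaked.

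Between old and adult controls, 5 of the 109 were higher (4.59%, against 4.56% of all features) and 6 lower (5.50%, against 8.31%), shares near or below the background. The 5 were Ly6d (log2 difference 6.62 ± 1.54, limma adjusted p = 0.0150), Cdsn, which encodes corneodesmosin (4.05 ± 1.25, adjusted p = 0.0399), Col17a1, a hemidesmosome collagen (4.65 ± 1.44, adjusted p = 0.0403), Tgm1, the transglutaminase of the envelope (2.67 ± 0.85, adjusted p = 0.0451), and Lce1g (at least 8.31-fold, adjusted p = 0.0474). Ly6d was 3.47, 5.72, 1.50 and -0.63 in old controls 1 to 4, and between -5.37 and -2.93 in adult controls. Old control 1 was thus high for Ly6d where it was low for the keratins. Ly6d is also a gene of B cell precursors. All 6 B and T cell markers were highest in old control 1, while Ly6d was higher in old control 2. Which cells gave the Ly6d signal was not tested.

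The 6 called lower in old controls all belonged to the hair follicle list: Krt82, a keratin of the hair cuticle (at least 2.82-fold lower, limma adjusted p = 0.00807), Krt73 (-0.95 ± 0.21, adjusted p = 0.0115), Krt86 (at least 4.06-fold lower, adjusted p = 0.0194), Krt31 (-1.10 ± 0.28, adjusted p = 0.0211), Dlx3 (-0.94 ± 0.29, adjusted p = 0.0382) and Krtap4-1 (-1.40 ± 0.44, adjusted p = 0.0424). They were 6 of 22 tested in that list (27.3%), against 8.31% of all features. No list other than that one held a gene called lower in old controls, and no gene of the hair follicle list was called higher.

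The hair follicle list followed the 10 genes less closely: its mean had r = 0.20 and Spearman rho = 0.55 with theirs over 23 arrays. It stood at 0.57 in old HIIT 4 and 0.61 in old control 2, but was highest in adult control 3 (2.28) and adult control 2 (1.75), and 16 of its 29 genes were highest in adult control 3. Krt71, a keratin of the inner root sheath of growing hair, had a log2 level of 1.98 and 2.43 in adult controls 2 and 3, was above background at -3.34 in old control 4, and was not above background on the other 20 arrays. Krt25 and Krt27, also keratins of the inner root sheath, were above background on adult controls 2 and 3 (Krt25 at -0.46 and 0.32, Krt27 at -0.24 and 0.32) and on no other array. On those 2 arrays Lce1a1, Krt1, Dsg1a and Dsc1 were not above background, and Lor was so in control 3 only. Krt15 was above background in adult controls 2 (-2.15) and 3 (-3.60) and in neither of the others. Krt5, at 0.24 and -1.34, was higher there than in adult controls 1 (-3.17) and 4 (-3.30). Krt79, a keratin of the follicle's upper duct, went with the 10 genes instead, at 6.26 in old control 2 and 4.88 in old HIIT 4.

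**Figure D4:**
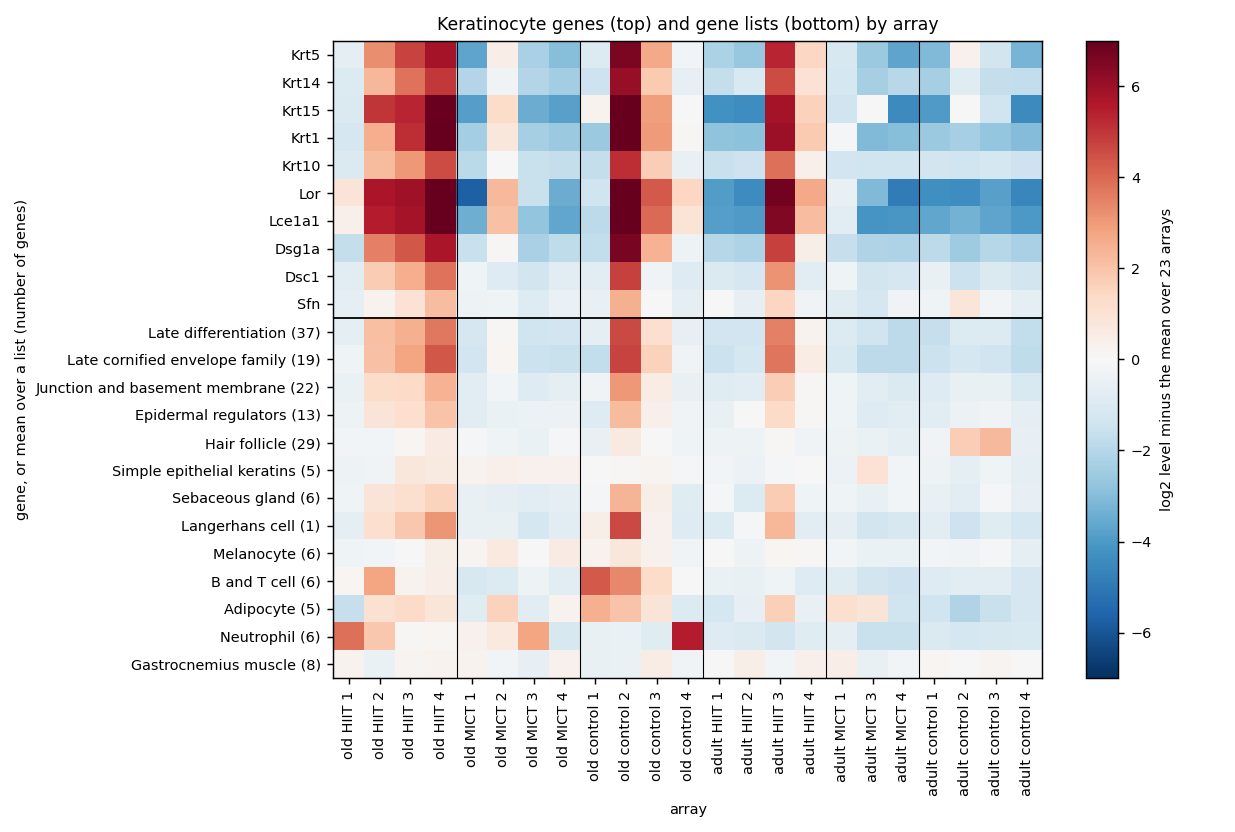
Log2 level of each of the 10 genes (upper rows) and the mean over each gene list (lower rows, number of genes in brackets) in each of the 23 arrays (columns, grouped), minus the mean over arrays, in colour from blue (low) to red (high). The red columns of the 10 genes (old HIIT 2 to 4, old control 2 and adult HIIT 3) recur in the late differentiation, late cornified envelope, junction and regulator lists, the sebaceous list and the Langerhans cell marker, while the hair follicle list is red in adult controls 2 and 3.

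Old MICT differed from old controls in 11 of the 109: 6 higher (5.50%, against 21.3% of features) and 5 lower (4.59%, against 9.03%). Higher were Krt82 (at least 4.09-fold, limma adjusted p = 0.00165), Krt18, a keratin of simple epithelia (1.61 ± 0.42, adjusted p = 0.0103), Tgm3 (1.15 ± 0.31, adjusted p = 0.0118), Krt86, Jup and Krtap4-1. Lower were Ly6d (-5.12 ± 1.54, adjusted p = 0.0197), Itgb4 (-1.06 ± 0.36, adjusted p = 0.0338), Lce1g (at least 6.93-fold, adjusted p = 0.0428), Cdsn and Tgm1. In old HIIT against old controls, Krt82 alone was called (0.92% of the 109, against 0.494% of features), at least 3.01-fold higher (adjusted p = 0.0214). The remaining 3 comparisons called none of the 109 by limma. At an unadjusted p under 0.05, 12 passed for adult HIIT against adult controls (5.09% of all features). For adult MICT against adult controls 9 passed (2.05% of all features), and for old HIIT against old MICT 58 (16.8% of all features). The lists were drawn up with earlier values of these arrays known, so nothing is read from these counts. Old HIIT 1 to 4 had Krt82 levels of -2.69, -2.70, -2.43 and -2.75, and old MICT 1 to 4 had levels of -1.95, -2.18, -2.33 and -2.34. Old controls 1 to 4 had levels of -4.23, -4.68, -3.64 and -6.02, none above background. Old controls lie on another slide than both old trained groups. With slide as a term in an additive model none of the 23707 features was called. That model shares each training effect between the ages and the age effect between treatments, so it does not test these comparisons separately. The calls above lie between groups on different slides and so cannot be read apart from slide. With only the 2 groups compared, none of the 109 was called, where 0.165% of all features were for old against adult controls and 0% for either old trained group against old controls.

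Other cells of skin gave a mixed picture. Cd207, the receptor langerin that defines Langerhans cells, was above background on the 5 arrays where all 10 genes were, and on no other array: it was at -4.11, -3.44 and -2.23 in old HIIT 2, 3 and 4, -0.65 in old control 2 and -2.95 in adult HIIT 3. The sebaceous gland list followed the 10 at r = 0.91 over its 6 genes, with 3 to 5 above background per array (Far2 on none). Its summed linear level, in units of the 75th percentile, was 3.73 to 9.19 in old HIIT, 2.79 to 4.01 in old MICT, 2.95 to 18.8 in old controls, 2.32 to 11.3 in adult HIIT, 3.49 to 4.83 in adult MICT and 3.23 to 4.58 in adult controls. Melanocyte markers followed less (r = 0.53 over 6 genes, with Tyrp1 and Slc45a2 never above background).

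Markers of tissues around muscle moved partly with the 10 genes. Adipocyte markers had r = 0.63 over 5 genes, with a summed level of 41.7 to 305 in old HIIT, 73.0 to 259 in old MICT, 67.9 to 625 in old controls, 49.9 to 363 in adult HIIT, 55.4 to 271 in adult MICT and 37.7 to 75.2 in adult controls. B and T cell markers had r = 0.52 over 6 genes, mast cell markers 0.31 over 4, bone markers 0.17 over 3, neutrophil markers 0.10 over 6 and muscle markers -0.09 over 8. The muscle list stayed within 0.59 log2 units of its mean on every array. The part of any of these cell types in the differences between groups was not tested.

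The 8 other named genes whose levels were, by Pearson r, most like the mean of the 10 over 23 arrays were Lce1l (r = 0.99), Cysrt1, Lce1b, Spink5, Gm94, Lce1m, Hal and Lce1e, all with r of 0.99. Spink5 encodes an inhibitor of skin proteases and Hal the histidine ammonia-lyase of the stratum corneum. Lce1m was above background on all 23 arrays, at -1.18, 4.04, 3.86 and 5.56 in old HIIT 1 to 4, and at -3.36, 5.95, 1.76 and -1.04 in old controls 1 to 4. Of 15456 named genes ranked, 201 had r of at least 0.9, and 46 of those were among the 109 genes of the epidermal lists.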

How the data were processed

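RNA of 23 gastrocnemius samples was hybridised to 1-colour Agilent arrays. Per the file headers, Agilent Feature Extraction 12.0.3.1 made the deposited intensity values: the processed signal is background subtracted within each array and not scaled between arrays. A deposited series table holds a score per spot, whose making is not stated in the sources used here; it followed the log10 processed signal (r of at least 0.99954).

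Control spots (3671 of 62976) and flagged spots were left out, log2 signals were averaged per probe, and each array's 75th percentile was subtracted. Accessions were matched to RefSeq symbols of GRCm38.p6 (28123 of 29574); mm9 is the build named in the array headers. The brightest probe stood for a gene. Features above background on at least 3 arrays (23707) were fitted with limma 3.58.1 in R 4.3.3: 6 group means, an intensity trend in the variance, 2-sided tests and Benjamini-Hochberg adjustment, called at an adjusted p under 0.05. The number of arrays limits the precision. The fit was tested on simulated data. Nothing in the labels says which arrays share a training or extraction day. The p-values set a difference of means against the spread between arrays of a group, pooled over the 6 groups. Each group lies on a single slide, so that spread holds no variation between slides.

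The members and lists were chosen with earlier results of these data known. Genes named from each list are the called ones with the smallest p, or the brightest where none was called, and the 8 genes most alike the members; Krt31, Dlx3, Krtap4-1, Krt71, Krt25, Krt27, Krt79 and Cd207 were described after their values were seen. Slide was tested as a term because it holds more than 1 group. Alternatives were normexp background (offset 50), quantile scaling, other filters, mean of probes, replicate block, array weights, the deposited table, slide as a term, only the compared groups, and each array left out; leaving out old control 2 with adult HIIT 3 was added after seeing the data. Adult MICT replicate 2 was not analysed here.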

Additional observations from a re-analysis of the deposited data

Results flagged for a closer look

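In groups of 4 arrays, 50 combinations of a member and a group were looked at for an array far from the other 3, and 5 stood out by Dixon's test, where chance gives about 1 in 20 for independent groups. That rate does not apply here, because the members were chosen for their variation on these arrays and move together. Of these, 3 were old MICT 2, for Krt15 (-0.91), Krt1 (-2.61) and Lce1a1 (-0.51), each above the other 3 old MICT arrays, none of which was above background. Dsc1 stood out in old control 2 (-0.42) and in adult HIIT 3 (-2.06), the only array of each group above background for it.

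Among the other epidermal genes, the response of Krt82 to MICT differed between ages: old minus adult was 3.22 ± 0.55 on the log2 scale (SE, limma adjusted p = 0.0179 for the difference). No old control was above background for Krt82, which was at least 4.09-fold higher in old MICT, so the fitted 3.22 depends on signal at background. Both MICT groups lie on other slides than their controls, so that slide and response cannot be told apart.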

How the results depend on the processing

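Counts below are of genes called in old against adult controls, old HIIT against old controls or old MICT against old controls; the other 3 comparisons called no member and no other epidermal gene under any alternative. With normexp background, members called in the age comparison were 0, and other epidermal genes 5, 0 and 5. The shares of all features called were 8.56%, 0% and 17.0%. With no filter on dim probes, members were 0 in the age comparison, and other epidermal genes 5 for age and 7 for old MICT. Of all features 5.65% were called for age and 16.4% for old MICT. Averaging probes gave 2 members for age, where 13.9% of all features were called. Array weights gave 7 members and 48 other epidermal genes for age, where they called 32.0% of all features, against 12.9% without weights. The deposited table, used for counts only because its scale differs, gave 7 other epidermal genes for old MICT (17.3% of all features). With slide as a term, and likewise with only the 2 groups compared, members were 0 for age and other epidermal genes 0, 0 and 0. With slide, 0% of all features were called. That additive model shares its effects between groups, so its results are not for the same comparisons. With only the 2 groups compared, the shares were 0.165%, 0% and 0%. Leaving out old control 2 and adult HIIT 3 together was chosen after seeing the data. Members were then 0 for age, and other epidermal genes 3 for age and 5 for old MICT (3.0% and 15.8% of all features). The cause of these changes was not tested. Leaving out 1 array at a time gave 0 to 1 members for age and 0 to 2 for old MICT. Other epidermal genes were 2 to 12, 0 to 1 and 3 to 15. The shares of all features called ranged from 2.03% to 23.7%, 0.0464% to 3.72% and 15.6% to 36.9%. The lowest counts of other epidermal genes came without old control 2 for age (2) and without old MICT 1 for old MICT (3). Lor in the age comparison, the only member value called in the main fit, kept its direction in every alternative that gave a difference. Directions of the other epidermal genes were not compared between alternatives. Member differences changed sign in 22 of 179 values for adult MICT and in 2 of 189 each for age, old HIIT and adult HIIT.

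Replicate numbers did not pair the samples: the deviations of same-numbered arrays of different groups correlated at -0.44 to 0.40. With the replicate block 2 members were called for age, where 13.5% of all features were. Slide as a random block could not be fitted because each group lies on 1 slide. Dsg1a and Dsc1 were above background on 6 and 5 arrays, so their differences are bounded by background elsewhere.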
